A study of Mus musculus with 9 samples.

Results

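The distal end of mouse Chromosome 12, beyond the airway hyperresponsiveness QTL, carries A/J DNA in 2 hyperresponsive strains and C57BL/6J DNA in the hyporesponsive strain, and the genes described here are those that start in it. Members are probesets with 1 gene symbol in the platform's annotation whose protein-coding gene starts at or above 82.6 Mb of Chromosome 12 in the reference gene table (assembly GRCm38.p6), without Fos and without the immunoglobulin heavy chain genes. The rule uses position, gene type and gene symbol, and no expression value, but it was set with earlier results of these data known. It found 276 probesets of 259 genes, out of 41345 probesets on the array and 300 protein-coding genes that the table places in this region, and 41 of those genes had no member probeset. In 16 of the 259 genes more than 1 probeset was a member.

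Lung RNA was measured in 9 mice of 8 to 12 weeks, 3 of each strain, with 1 array per mouse. The paper's array methods name no treatment of these mice. BcA86 is a recombinant congenic strain, a C57BL/6J background with inherited segments of A/J, and its A/J segment on Chromosome 12 covers the QTL and runs on to the end of the chromosome. It also carries A/J segments on other chromosomes. CSS12 (C57BL/6J-Chr12 A/J/NaJ) is a chromosome substitution strain whose whole Chromosome 12 comes from A/J on a C57BL/6J background. C57BL/6J, the hyporesponsive strain, has no A/J DNA, and its 3 mice serve both strain comparisons. The A/J DNA at these genes is therefore common to BcA86 and CSS12, as is that of the QTL and of Chromosome 12 from 33.38 Mb on. By origin, the strains differ in the part of Chromosome 12 before 33.38 Mb and in the A/J segments of BcA86 on other chromosomes. The paper adds that many generations of inbreeding might have left BcA86 with new mutations that A/J and CSS12 lack. Each strain is 1 inbred line, and no source used here states the sex of the mice or when in the day lungs were taken.

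When a chromosome segment is moved from one inbred strain into another, every gene in it arrives with the donor's own promoter, enhancers and coding sequence. Variants close to a gene can change how much of that gene's RNA is made from the same chromosome, which is called regulation in cis, and neighbouring genes need not move in the same direction. Genes carried along with a QTL but outside its interval are called passengers, and comparing strains that share a segment is the usual way to list them. The paper also reports a marker within this distal region, outside the QTL's interval, as significantly associated with airway hyperresponsiveness. The distal part of mouse Chromosome 12 holds the acyl-CoA thioesterase and serpin clusters, the imprinted Dlk1-Dio3 domain, and single genes such as Akt1, Jag2 and Tgfb3.

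Expression values are log2 levels after robust multiarray averaging (RMA), so a difference of 1 is a factor of 2. The median level of an array lay between 6.08 and 6.13 in all 9 mice. The markers of lung epithelium (Sftpc, Sftpa1, Sftpb, Ager and Scgb1a1) averaged 13.03 to 13.10 in BcA86, 13.04 to 13.06 in CSS12 and 12.99 to 13.08 in C57BL/6J. The neutrophil markers (S100a8, S100a9, Cxcr2 and Csf3r) averaged 8.15 to 8.37 in BcA86, 6.51 to 7.15 in CSS12 and 7.63 to 8.74 in C57BL/6J, so the CSS12 mice lay below all others in that list. No marker gene passed in the strains together. In CSS12 against BcA86 the neutrophil gene Csf3r fell by 1.34 (adjusted p 0.0343), and all 4 neutrophil and all 3 B cell markers were lower at an unadjusted p under 0.05. The part of cell composition in the values below was not tested. In whole tissue, fewer cells of a type and less RNA per cell cannot be told apart. The probes follow the C57BL/6J reference sequence, and whether A/J variants under a probe lower its signal was not tested.

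Few of the 276 probesets passed the adjusted threshold in any comparison. In BcA86 and CSS12 together against C57BL/6J, 4 probesets passed an adjusted p of 0.05 (limma, Benjamini-Hochberg over all 41345 probesets). Inf2, Clba1 and Jag2 rose and Ahnak2 fell. This was 1.45% of the members, against 0.302% of all probesets. Elsewhere on Chromosome 12, 2 of 156 probesets passed in the QTL and 2 of 46 between the start of the BcA86 segment and the QTL. Before that start, 2 of 127 passed. In BcA86 alone against C57BL/6J, 3 members passed (Inf2 and Clba1 higher, Ahnak2 lower; 0.375% of all probesets passed), and in CSS12 alone against C57BL/6J, 3 members passed (Inf2, Clba1 and Jag2, all higher; 0.22% of all probesets). Between CSS12 and BcA86, 2 members passed (Cipc and Flrt2, both higher in CSS12), which was 0.725% of the members and 0.716% of all probesets.

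At an unadjusted p under 0.05 the strains together differed from C57BL/6J in 48 of the 276 probesets (17.4%), against 9.7% of all probesets. Of these, 21 were higher (4.86% of all probesets were) and 27 were lower (4.84% of all probesets were). For 14 probesets all 6 hyperresponsive mice lay above all 3 C57BL/6J mice, which held for 2.35% of all probesets, and for 21 they all lay below, which held for 2.54%. Both directions together made 12.7% of the members. The share was 13.5% in the QTL, 15.2% between the start of the BcA86 segment and the QTL, and 11.8% before that start. Taken singly, BcA86 differed in 43 members (background 10.4%) and CSS12 in 41 (background 10.7%). CSS12 differed from BcA86 in 27 members (9.78%), against a background of 11.9%, so the share of members that separated the strains with common A/J DNA was no larger than on the array as a whole. Protein-coding genes of the other chromosomes passed the same unadjusted threshold in 10.5% of probesets for the strains together and 10% for CSS12 against BcA86.

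Most of the region was measured with small differences. The median log2 fold change of the members was -0.0050 for the strains together (0.00 over all probesets), and the median absolute change was 0.09 (0.08 over all probesets). Of the 276 probesets, 251 had differences of less than 0.25 in size and 8 of more than 0.5, and for 238 the whole 95% interval lay within 0.5 of 0. The median level was 7.19, above the 6.10 of all probesets, and 81 members lay below that array median. Of the 48 members at an unadjusted p under 0.05, 7 came from those 81 dim probesets and 41 from the 195 brighter ones.

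**Figure D1:**
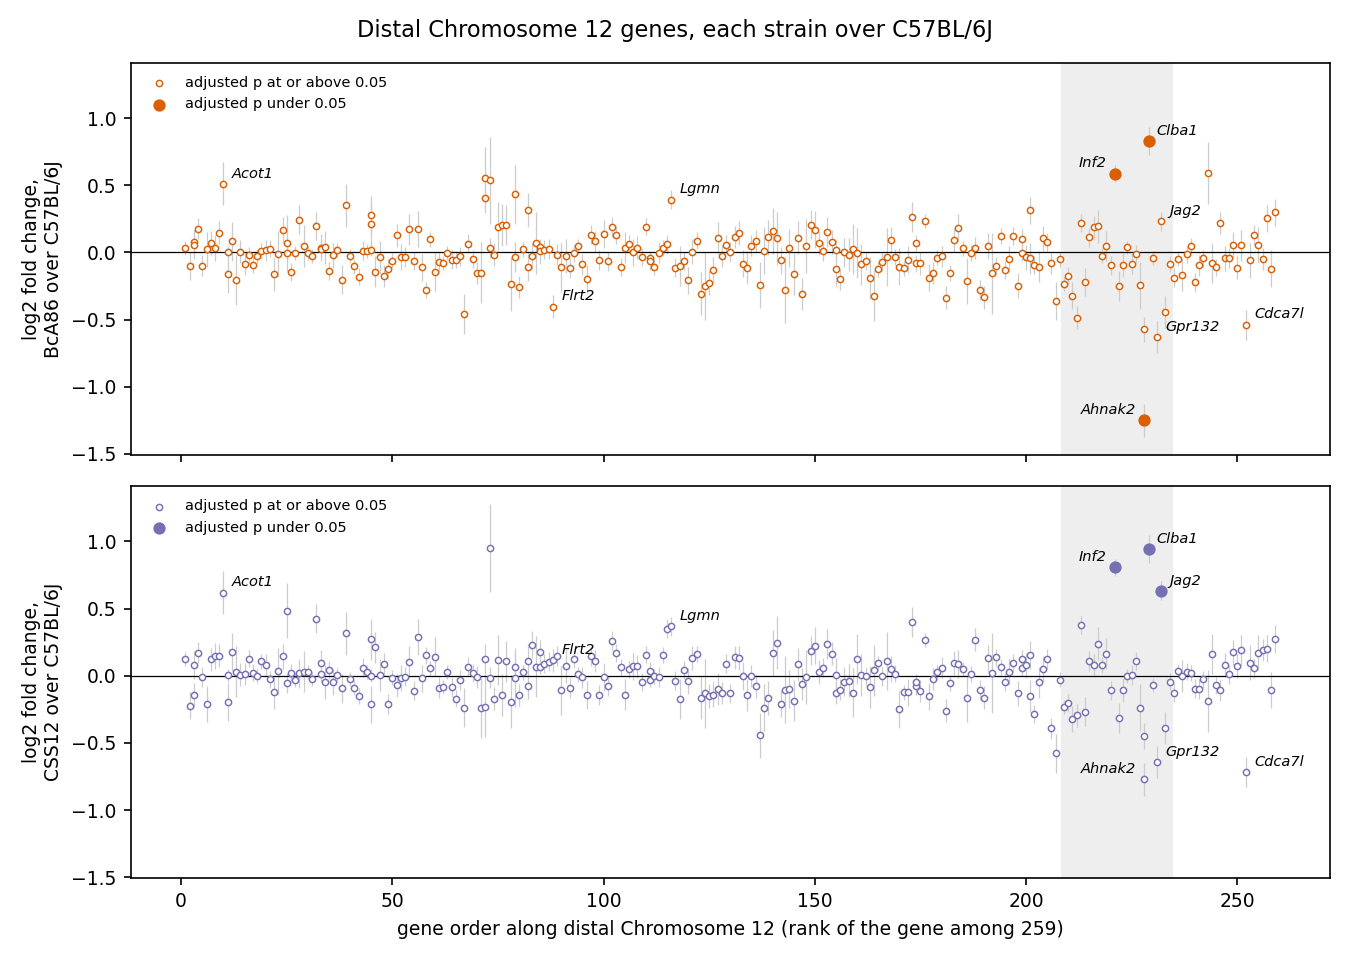
Log2 fold change of each member probeset over C57BL/6J (y axis, log2 units) for BcA86 (top) and CSS12 (bottom) against the order of the 259 genes along the chromosome (x axis). Lines are standard errors, filled points passed an adjusted p of 0.05, and the grey band is the stretch from Coa8 to Brf1, which holds every filled point in both panels.

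The differences were not spread evenly along the region. When the 259 genes were cut in chromosome order into 10 stretches of 25 or 26 genes, the ninth, from Coa8 to Brf1, held all 4 probesets that passed in the strains together. In it 14 of 27 probesets (51.9%) had an unadjusted p under 0.05, 4 higher and 10 lower, against 34 of 249 (13.7%) in the other stretches and 9.7% of the array. Its probesets had a median absolute change of 0.23 on the log2 scale, against 0.08 in the other stretches. The 6 hyperresponsive mice lay wholly above the C57BL/6J mice for 4 of its probesets and wholly below for 11, together 55.6% of the stretch, against 8.03% in the other stretches and 2.35% above and 2.54% below on the whole array. By strain, 12 of its 27 probesets had an unadjusted p under 0.05 in BcA86 and 14 in CSS12, against 31 and 27 of the other 249. The neighbouring stretch before it, from Wdr25 to Bag5, held 7 of 28 (25%), and the stretch from Ifi27l2b to Tcl1b2 held the fewest, 1 of 27 (3.7%), at a median level of 5.33. The number of stretches was chosen after earlier results of these data were known, and the shares are a description without a test.

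**Figure D2:**
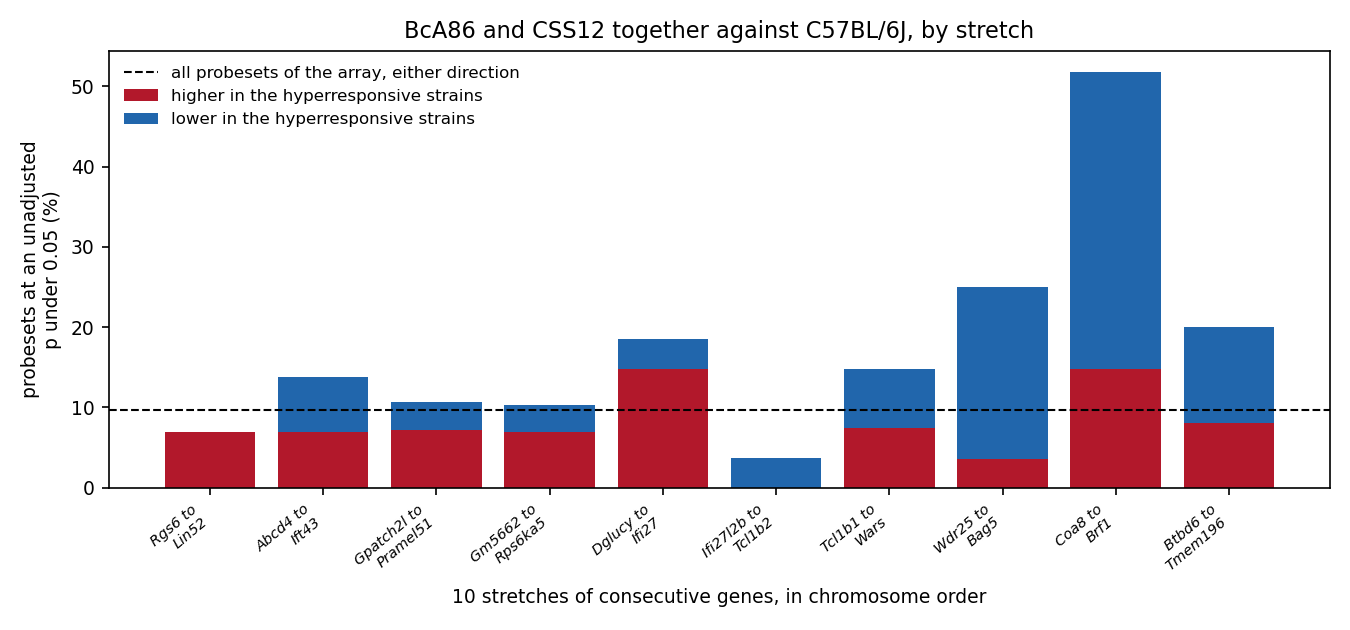
Share of probesets at an unadjusted p under 0.05 (y axis, %) in 10 consecutive stretches of genes (x axis), for BcA86 and CSS12 together against C57BL/6J. Red parts count probesets above C57BL/6J and blue parts those below, the dashed line is the 9.7% of the whole array, and the stretch from Coa8 to Brf1 reaches 51.9%.

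Inf2, inverted formin 2, a protein that assembles and severs actin filaments, gave the smallest adjusted p among the members. Its level was 8.12, 8.16 and 8.11 in the BcA86 mice and 8.43, 8.38 and 8.25 in the CSS12 mice, against 7.55, 7.54 and 7.55 in the C57BL/6J mice. All 6 hyperresponsive mice lay above the C57BL/6J mice, whose values were nearly equal. The strains together were 1.62-fold higher, a log2 fold change of 0.70 (standard error 0.05, 95% interval 0.57 to 0.82, adjusted p 0.00395). The change was 0.59 in BcA86 (adjusted p 0.00846) and 0.81 in CSS12 (adjusted p 0.00767), and CSS12 was 0.22 above BcA86 (interval 0.08 to 0.36, adjusted p 0.176). The call in BcA86 was lost without BcA86 mouse 2 (adjusted p 0.0549) and with same-numbered mice fitted as a block (0.0533). The call in CSS12 was lost when only the CSS12 and C57BL/6J arrays were fitted (0.083).

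Clba1, which is named for its clathrin-binding box, had the largest positive change of the 276 members in the strains together. It measured 8.20, 8.16 and 8.20 in BcA86 and 8.47, 8.11 and 8.32 in CSS12, against 7.41, 7.45 and 7.21 in C57BL/6J. The groups of 6 and 3 mice did not overlap, and the strains together were 1.85-fold higher (log2 0.89, standard error 0.09, adjusted p 0.0104). The change was 0.83 in BcA86 (adjusted p 0.0182) and 0.94 in CSS12 (adjusted p 0.0157), and CSS12 and BcA86 differed by 0.11, with an interval of -0.12 to 0.35. The call for the strains together held whichever array was left out, while the call in BcA86 was lost in 7 of those 9 fits (adjusted p up to 0.088) and the call in CSS12 in 5 (up to 0.0872) and with only the compared arrays (0.128). With same-numbered mice fitted as a block, the calls in BcA86 (0.076) and in CSS12 (0.0676) were lost too. Clba1 is also in the study's table of selected genes, which was chosen on these arrays, so its call is not independent of that choice.

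Ahnak2, a very large scaffold protein of the AHNAK family, had the largest negative change. On the probeset that passed it measured 6.99, 7.29 and 7.09 in BcA86 and 7.65, 7.66 and 7.49 in CSS12, against 8.44, 8.55 and 8.14 in C57BL/6J. The strains together were 2.01-fold lower (log2 -1.01, standard error 0.11, adjusted p 0.0122). BcA86 fell by 1.25 (adjusted p 0.00755), while CSS12 had a change of -0.77 (adjusted p 0.0688). A different probeset of Ahnak2 gave a smaller difference: 7.46, 7.50 and 7.61 in BcA86 and 7.72, 7.61 and 7.61 in CSS12, against 8.18, 8.21 and 7.90 in C57BL/6J. Its change was -0.51 (interval -0.70 to -0.32, adjusted p 0.0595), so both probesets separated the 6 mice from the 3 but only one of them passed. The call was lost without C57BL/6J mouse 1 or mouse 2 (adjusted p up to 0.0636) and in a fit of 6 against 3 mice (0.111), and the call in BcA86 with only the compared arrays (0.0544).

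Jag2, a ligand of the Notch receptors, measured 8.38, 8.32 and 8.25 in BcA86 and 8.70, 8.63 and 8.82 in CSS12, against 8.13, 8.10 and 8.03 in C57BL/6J. The 3 strains formed separate ranges, with CSS12 highest and C57BL/6J lowest. The strains together were 1.35-fold higher (log2 0.43, standard error 0.06, adjusted p 0.0418). The change in CSS12 was 0.63 (adjusted p 0.0179) and in BcA86 0.23 (adjusted p 0.314), and CSS12 was 0.40 above BcA86 (interval 0.24 to 0.56, adjusted p 0.0542). The call for the strains together was lost when any 1 of the 9 arrays was left out, with adjusted p between 0.0602 and 0.147, and in a fit of 6 against 3 mice (0.39), at log2 changes that stayed between 0.40 and 0.45. The call in CSS12 alone was lost in 7 of the 9 fits (adjusted p up to 0.0793) and with only the compared arrays (0.104). With same-numbered mice fitted as a block, the call for the strains together (0.142) and that in CSS12 (0.0828) were lost.

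These 4 genes lie within 12 neighbouring members, in the order Inf2, Adssl1, Siva1, Akt1, Zbtb42, Cep170b, Pld4, Ahnak2, Clba1, Cdca4, Gpr132 and Jag2. Ahnak2 and Clba1 are adjacent members on opposite strands, their starts are 13.2 kb apart, and they moved in opposite directions. Of the 6 genes between Inf2 and Ahnak2, none passed: Adssl1 differed by -0.28, Siva1 by -0.10, Akt1, the growth factor signalling kinase, by 0.02, Zbtb42 by -0.04, Cep170b by 0.05 and Pld4 by -0.24. The sequence of 250 bases before the start of each of the 4 genes is printed because expression of these genes separated the strains. They are RefSeq promoters of the C57BL/6J reference genome (GRCm38.p6, all on Chromosome 12), at chr12:112588517-112588766 (plus strand), chr12:112808725-112808974 (plus strand), chr12:112795743-112795992 (minus strand) and chr12:112929496-112929745 (minus strand), and 227 of the 259 genes have an entry in that table. The A/J sequence was not analysed here. Where the table lists several starts, the first is shown, and capitals mark the E-box CACGTG, the GC box GGGCGG, the CCAAT box CCAAT and the TATA box TATAAA on either strand.

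Inf2: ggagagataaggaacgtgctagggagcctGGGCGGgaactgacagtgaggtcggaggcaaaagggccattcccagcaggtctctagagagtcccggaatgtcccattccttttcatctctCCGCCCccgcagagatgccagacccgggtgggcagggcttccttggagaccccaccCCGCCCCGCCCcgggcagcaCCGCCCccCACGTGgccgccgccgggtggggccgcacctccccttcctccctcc
Clba1: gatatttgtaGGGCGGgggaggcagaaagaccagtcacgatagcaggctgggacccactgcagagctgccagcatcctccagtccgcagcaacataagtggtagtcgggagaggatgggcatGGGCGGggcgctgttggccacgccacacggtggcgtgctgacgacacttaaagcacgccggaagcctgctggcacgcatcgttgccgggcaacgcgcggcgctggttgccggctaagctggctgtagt
Ahnak2: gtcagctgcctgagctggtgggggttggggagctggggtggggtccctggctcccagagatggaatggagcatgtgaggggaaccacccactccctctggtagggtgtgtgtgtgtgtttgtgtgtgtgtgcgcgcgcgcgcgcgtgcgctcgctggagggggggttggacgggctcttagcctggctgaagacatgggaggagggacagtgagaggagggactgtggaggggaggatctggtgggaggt
Jag2: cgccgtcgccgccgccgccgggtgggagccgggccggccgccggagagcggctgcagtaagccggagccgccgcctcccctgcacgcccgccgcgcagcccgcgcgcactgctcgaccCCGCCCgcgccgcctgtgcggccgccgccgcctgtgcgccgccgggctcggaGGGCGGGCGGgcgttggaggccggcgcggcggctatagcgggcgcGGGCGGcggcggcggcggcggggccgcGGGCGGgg

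The Inf2 window held 1 E-box and 5 GC boxes, those of Clba1 and Jag2 held 2 and 5 GC boxes, and that of Ahnak2 held none of the 4 motifs. Over 32851 promoters of the same length, 6.02% held the E-box, 32.7% the GC box, 33.8% the CCAAT box and 12.4% the TATA box. These matches describe the letters only.

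**Figure D3:**
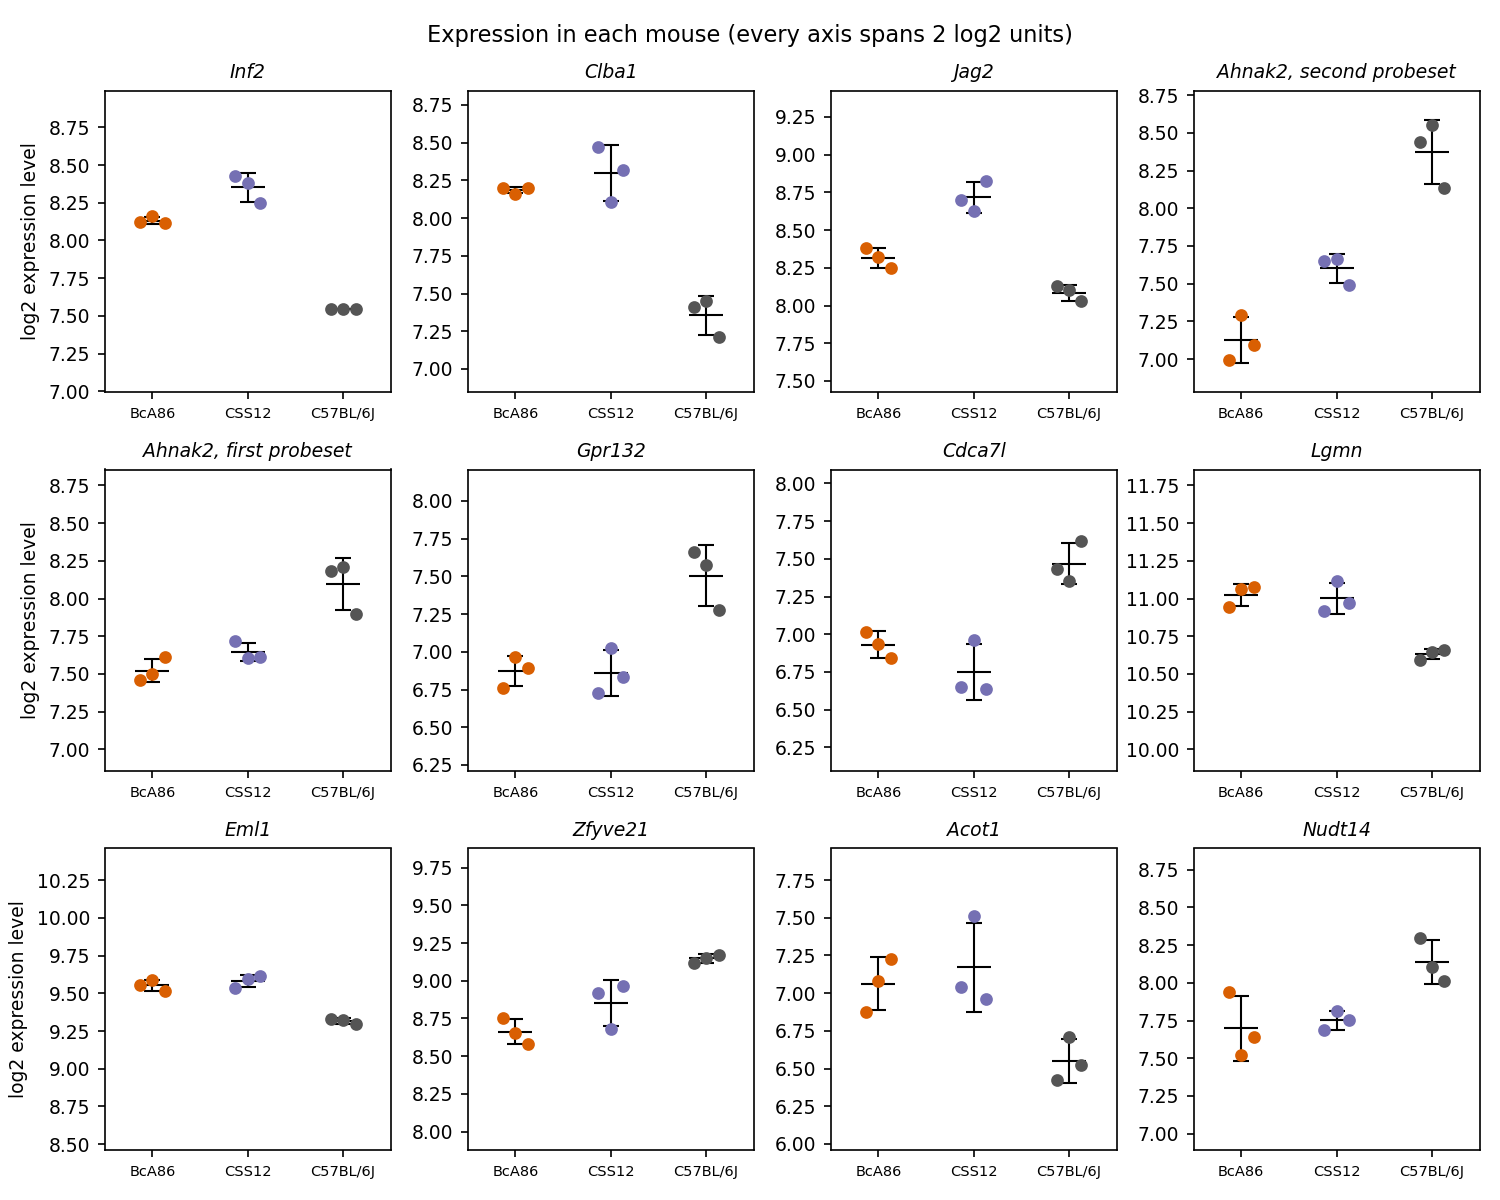
Log2 level (y axis, 2 log2 units in each panel) of 11 genes, 1 of them with both of its probesets, in the 3 mice of BcA86, CSS12 and C57BL/6J (x axis). Points are mice and bars are the mean with the SD, and the panel named second probeset of Ahnak2 is the one that passed. In every panel the points of BcA86 and CSS12 lie wholly on one side of C57BL/6J, because the genes shown were taken from members without overlap. Over all probesets, 2.35% lay wholly above and 2.54% wholly below.

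In the rest of the stretch from Coa8 to Brf1, 10 further probesets had an unadjusted p under 0.05 without passing the adjustment. Gpr132, a G protein-coupled receptor of lymphocytes and macrophages, measured 6.76, 6.96 and 6.89 in BcA86 and 6.72, 7.02 and 6.84 in CSS12, against 7.66, 7.57 and 7.28 in C57BL/6J. The groups did not overlap and the difference was -0.64 (interval -0.88 to -0.40, adjusted p 0.0666), -0.63 in BcA86 and -0.64 in CSS12. The gene is in the study's table as well. Beside it, the B cell marker list averaged 8.89 to 9.35 in BcA86, 7.75 to 8.44 in CSS12 and 8.47 to 9.21 in C57BL/6J, and the macrophage list averaged 9.27 to 9.50 in BcA86, 9.45 to 10.01 in CSS12 and 9.43 to 9.46 in C57BL/6J. The T cell marker list averaged 7.61 to 8.02 in BcA86, 7.34 to 7.99 in CSS12 and 7.65 to 8.14 in C57BL/6J. The part of these cells in the Gpr132 values was not tested.

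Nudt14, a hydrolase of UDP-sugars, measured 7.94, 7.52 and 7.64 in BcA86 and 7.69, 7.81 and 7.76 in CSS12, against 8.30, 8.11 and 8.01 in C57BL/6J. Its difference was -0.41 (adjusted p 0.219). At the other end of the stretch lay a run of 6 consecutive genes, Coa8 to Atp5mpl, in which all 6 hyperresponsive mice lay outside the C57BL/6J range for every gene. Coa8, an assembly factor of cytochrome c oxidase, averaged 7.56 ± 0.05 in BcA86 and 7.56 ± 0.04 in CSS12, against 7.79 ± 0.02 in C57BL/6J (SD, n = 3 each). Its difference was -0.23 (adjusted p 0.127). Klc1, a kinesin light chain, differed by -0.19 (adjusted p 0.332) and Xrcc3, a DNA repair protein, by -0.32 (adjusted p 0.249). Zfyve21, which has a FYVE domain and acts at focal adhesions, averaged 8.66 ± 0.08 in BcA86 and 8.85 ± 0.15 in CSS12, against 9.15 ± 0.03 in C57BL/6J, a difference of -0.39 (adjusted p 0.107). Ppp1r13b, the p53 cofactor ASPP1, was the single gene of the run with a positive difference, 0.30 (adjusted p 0.123). It averaged 10.19 ± 0.02 in BcA86 and 10.35 ± 0.01 in CSS12, against 9.97 ± 0.12 in C57BL/6J. Atp5mpl, a small subunit of mitochondrial ATP synthase, differed by -0.24 (adjusted p 0.451). Shortly before the run, with Bag5 between, Trmt61a, the catalytic subunit of a tRNA methyltransferase, measured 6.51, 6.27 and 6.51 in BcA86 and 6.05, 6.50 and 6.08 in CSS12, against 6.84, 6.60 and 6.93 in C57BL/6J (difference -0.47, adjusted p 0.249).

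**Figure D4:**
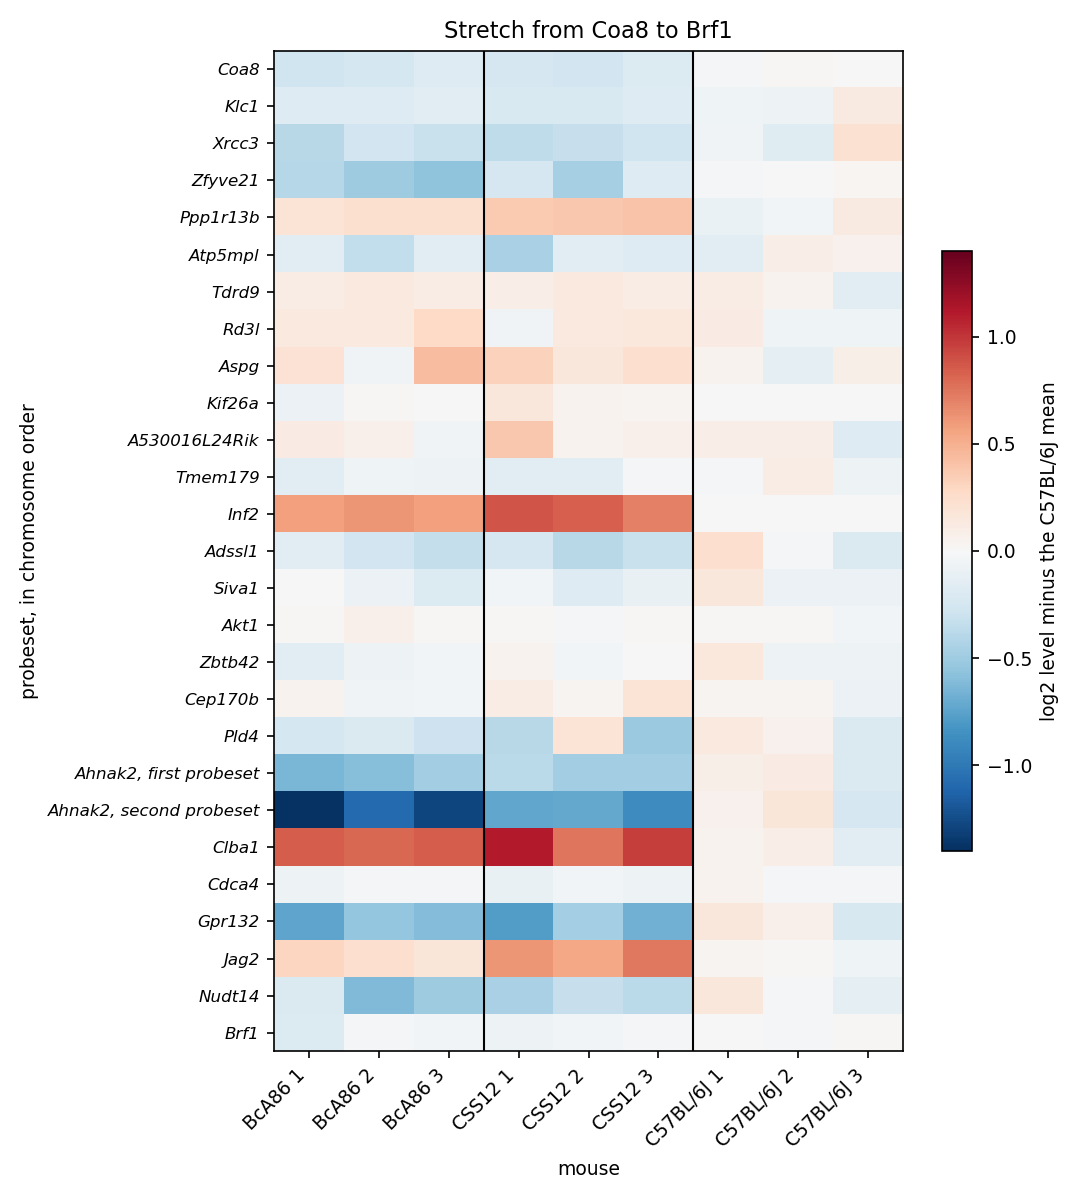
Each mouse's log2 level minus the C57BL/6J mean (colour, red higher and blue lower) for the 27 probesets from Coa8 to Brf1 in chromosome order (rows), in the mice of BcA86, CSS12 and C57BL/6J (columns). Inf2, Clba1 and Jag2 are red and Ahnak2, Gpr132 and Nudt14 are blue in the 6 hyperresponsive mice, with pale rows such as Akt1 and Cep170b between them.

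Outside this stretch no member passed in the strains together. Cdca7l, a nuclear protein that binds MYC, lies near the end of the region and came closest. It measured 7.02, 6.93 and 6.84 in BcA86 and 6.65, 6.96 and 6.63 in CSS12, against 7.44, 7.35 and 7.62 in C57BL/6J. The groups did not overlap, and the difference was -0.63 (interval -0.85 to -0.41, adjusted p 0.053). Cdca7l is in the study's table, chosen on these arrays. Lgmn, the lysosomal asparaginyl endopeptidase of antigen-presenting and other cells, measured 10.94, 11.06 and 11.07 in BcA86 and 10.92, 11.12 and 10.97 in CSS12, against 10.59, 10.64 and 10.66 in C57BL/6J. Its difference was 0.38 (interval 0.24 to 0.52, adjusted p 0.0648), and CSS12 and BcA86 differed by -0.02. Eml1, a microtubule-binding protein, averaged 9.55 ± 0.04 in BcA86 and 9.58 ± 0.04 in CSS12, against 9.32 ± 0.02 in C57BL/6J (SD, n = 3 each), a difference of 0.25 (adjusted p 0.0991). With dim probesets left out before the fit, 12 members passed in place of 4, while calls on the whole array numbered 286 in place of 125. The 12 included Cdca7l, Lgmn, Gpr132, Eml1, Zfyve21, Ppp1r13b, Coa8 and the other Ahnak2 probeset.

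Members were also grouped into 15 lists by function. Of the 4 genes that passed in the strains together, Inf2 and Ahnak2 stand in the cytoskeleton list, Jag2 in the lists of matrix and vessel genes and of receptors and ligands, and Clba1 in none. No other list held a member that passed, and the counts that follow are at an unadjusted p under 0.05, a threshold at which 4.86% of all probesets were higher and 4.84% lower. Of 22 genes (23 probesets) of the cytoskeleton, motors and cilia, 2 probesets were higher and 4 lower at that threshold, with a median change of 0.02. They are Inf2, both probesets of Ahnak2, Eml1, Klc1 and Crip1. Of 10 genes (11 probesets) of extracellular matrix and vessels, 5 were higher and none lower, with a median of 0.03. Beside Jag2 these were Ltbp2, a protein of elastic microfibrils, at 9.06, 9.09 and 9.09 in BcA86 and 9.15, 9.54 and 9.23 in CSS12, against 8.95, 8.94 and 8.75 in C57BL/6J (difference 0.31, adjusted p 0.311). Fbln5, which organises elastic fibres, differed by 0.17 (adjusted p 0.347). Pgf, the placental growth factor that binds the VEGF receptor FLT1, differed by 0.33 with overlapping groups (adjusted p 0.491), and Itgb8, an integrin subunit that activates latent TGF-beta, by 0.23 (adjusted p 0.451). The 4 endothelial markers averaged 11.68 to 11.79 in BcA86, 11.67 to 11.68 in CSS12 and 11.46 to 11.69 in C57BL/6J, with 2 of the 4 higher at an unadjusted p under 0.05; their part in these values was not tested.

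Of 20 genes (23 probesets) of mitochondrial and small molecule metabolism, 5 probesets were lower and none higher (4.84% lower and 4.86% higher over all probesets), and the median was -0.06. Slc25a47, a mitochondrial carrier known from liver, averaged 6.36 ± 0.05 in BcA86 and 6.44 ± 0.16 in CSS12, against 6.70 ± 0.06 in C57BL/6J, a difference of -0.30 (adjusted p 0.22). Adssl1, the muscle form of adenylosuccinate synthase, differed by -0.28 (adjusted p 0.409), Ckb, the brain form of creatine kinase, by -0.24 (adjusted p 0.3), Acyp1, an acylphosphatase, by -0.17, and Nudt14 is described above. Among 11 genes of DNA repair and cell division, none was higher and 3 were lower (4.84% of all probesets were), namely Cdca7l, Xrcc3 and Zfyve21, the last being a focal adhesion protein. Among 14 receptors and ligands, 3 were higher and 1 lower. Among 14 interferon and immune cell genes, 2 were higher and 3 lower, with Lgmn and Gpr132 the largest in each direction. Pld4, an exonuclease of macrophages and dendritic cells, differed by -0.24 with overlapping groups (adjusted p 0.669).

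The 28 genes (29 probesets) of transcription and chromatin held 1 probeset higher and 2 lower, among them Nrde2, a nuclear RNA interference protein, with a difference of 0.23 (adjusted p 0.283). Bcl11b, a T lineage transcription factor, differed by -0.18 (adjusted p 0.686). Among 21 genes (22 probesets) of kinases, phosphatases and signalling adaptors, 2 were higher and 1 lower. Rin3, an exchange factor of RAB5, differed by 0.20 (adjusted p 0.319), and Tnfaip2, a TNF-induced gene, by -0.19 (adjusted p 0.318). In the list of 15 lysosome, autophagy and protein folding genes (16 probesets), 1 was higher and 1 lower. Hsp90aa1, the inducible HSP90 chaperone, measured 8.32, 8.17 and 8.32 in BcA86 and 8.43, 8.43 and 8.46 in CSS12, against 8.43, 8.73 and 8.65 in C57BL/6J (difference -0.25, adjusted p 0.311). Among 12 neuronal and ion transport genes none was higher and 1, Prima1, the anchor of acetylcholinesterase in membranes, was lower (difference -0.19, adjusted p 0.489). Chga, the granule protein chromogranin A of neuroendocrine cells, differed by -0.14 and Unc79, a subunit of the NALCN sodium leak channel complex, by -0.19, both with overlapping groups. Tmem251, a lysosomal enzyme trafficking factor, differed by -0.12 (adjusted p 0.695). Tmem196, a membrane protein and the last member on the chromosome, averaged 6.08 ± 0.10 in BcA86 and 6.05 ± 0.06 in CSS12, against 5.78 ± 0.19 in C57BL/6J, without overlap (difference 0.29, adjusted p 0.339).

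The 6 acyl-CoA thioesterases, which cleave fatty acyl-CoA to free acid, stand near the start of the region. Acot1, the cytosolic enzyme, measured 6.88, 7.08 and 7.23 in BcA86 and 7.04, 7.51 and 6.96 in CSS12, against 6.43, 6.71 and 6.52 in C57BL/6J. The groups did not overlap, the difference was 0.56 (interval 0.25 to 0.88, adjusted p 0.216), and the gene is in the study's table. Acot2, the mitochondrial enzyme, differed by 0.15 and Acot4, the peroxisomal one, by -0.18 on one probeset and 0.00 on the other. The Acot4 probeset with 0.00 was flat, with the same value of 6.29 in every BcA86 and CSS12 mouse, so it tells little about the gene. The median over the 7 thioesterase probesets was 0.01. These genes arose by duplication and resemble each other closely, so a probeset may read more than 1 of them.

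The serpins, inhibitors of serine proteases, gave 18 members with none higher and 1 lower at the unadjusted threshold and a median of -0.03. Serpina3n, the antichymotrypsin-like serpin, was one of the brightest members, at 11.80 ± 0.16 in BcA86 and 11.85 ± 0.23 in CSS12, against 11.63 ± 0.15 in C57BL/6J (difference 0.19, adjusted p 0.658). Serpina1b, an antitrypsin gene known from liver, was dim, with a mean of 4.78 over the 9 mice and a difference of -0.34 (adjusted p 0.508). Serpina3j differed by 0.20 (adjusted p 0.557). The mouse serpin genes are close copies of each other too, and the same limit holds. The imprinted genes Dlk1 and Dio3 differed by 0.04 and -0.19 at levels of 5.57 and 4.73 in BcA86, 5.59 and 4.77 in CSS12, and 5.54 and 4.94 in C57BL/6J, and neither passed. Dio2 and Dio3, the deiodinases that activate and inactivate thyroid hormone, had no probeset that passed, and the probesets of Dio2 had opposite signs, -0.09 and 0.21.

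The receptors that bear on airway tone did not pass in any comparison. Bdkrb1 and Bdkrb2, the bradykinin receptors, differed by -0.14 each in the strains together (adjusted p 0.834 and 0.796). Vipr2, a receptor of the bronchodilator peptide VIP, averaged 7.94 ± 0.09 in CSS12, against 8.27 ± 0.13 in BcA86, and 8.05 ± 0.03 in C57BL/6J (SD, n = 3 each). The CSS12 and BcA86 mice did not overlap, with a difference of -0.33 (interval -0.52 to -0.14, adjusted p 0.122).

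Although CSS12 and BcA86 both carry A/J DNA here, Cipc and Flrt2 differed between them. Cipc, a protein that binds CLOCK and represses it, measured 8.51, 8.55 and 8.53 in CSS12, against 8.12, 8.06 and 8.12 in BcA86, while C57BL/6J had 8.29, 8.46 and 8.39. The CSS12 mice were above the BcA86 mice by 0.43 (standard error 0.06, interval 0.29 to 0.57, adjusted p 0.0294), and C57BL/6J lay between them. Flrt2, a membrane protein that binds the guidance receptors UNC5 and the latrophilins, measured 8.33, 8.06 and 8.21 in CSS12, against 7.71, 7.61 and 7.74 in BcA86, and 8.06, 8.17 and 8.03 in C57BL/6J. The difference was 0.52 (interval 0.33 to 0.71, adjusted p 0.0413), and the CSS12 and C57BL/6J ranges overlapped. Neither call held when only the arrays of the compared strains were fitted (adjusted p 0.0595 for Cipc and 0.12 for Flrt2). Nor did they hold with same-numbered mice fitted as a block (0.0882 and 0.102). With single arrays left out, the Cipc call was lost in 7 of 9 fits (adjusted p up to 0.131) and the Flrt2 call in all 9 (0.0657 to 0.148). The promoter windows of both genes, chr12:86947093-86947342 and chr12:95691976-95692225 (both on the plus strand of GRCm38.p6), are printed in the same way because these were the members that separated the strains with A/J DNA in common.

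Cipc: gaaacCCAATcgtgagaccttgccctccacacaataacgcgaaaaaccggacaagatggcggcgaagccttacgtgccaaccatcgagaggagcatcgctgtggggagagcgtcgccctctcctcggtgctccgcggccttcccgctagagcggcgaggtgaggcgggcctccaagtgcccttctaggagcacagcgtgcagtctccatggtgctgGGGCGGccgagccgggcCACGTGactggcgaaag
Flrt2: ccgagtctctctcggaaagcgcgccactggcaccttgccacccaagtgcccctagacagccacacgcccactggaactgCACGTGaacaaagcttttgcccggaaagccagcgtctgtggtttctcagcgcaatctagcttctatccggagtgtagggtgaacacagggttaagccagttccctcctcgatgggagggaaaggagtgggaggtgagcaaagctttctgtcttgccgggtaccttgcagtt

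Each of the windows held 1 E-box CACGTG, the site that CLOCK and its partners bind, which 6.02% of promoters of this length hold. The Cipc window also held 1 CCAAT box and 1 GC box, and the Flrt2 window held neither.

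Behind these, the difference between CSS12 and BcA86 was 0.40 for Jag2 and 0.48 for the Ahnak2 probeset with the larger change (adjusted p 0.0542 and 0.139). Rin3 measured 10.16, 10.25 and 10.26 in CSS12, against 9.92, 9.97 and 9.91 in BcA86, and 9.75, 9.97 and 9.91 in C57BL/6J (CSS12 over BcA86 0.29, adjusted p 0.122). Ckb averaged 9.10 ± 0.05 in CSS12, against 9.41 ± 0.09 in BcA86, and 9.49 ± 0.12 in C57BL/6J (difference -0.31, adjusted p 0.139). Besides Flrt2 and the Ahnak2 probeset, the differences largest in size were those of Oog1, of an oocyte family of near-identical copies, at -0.78 (interval -1.31 to -0.26), Adam6b, which lies within the immunoglobulin heavy chain locus, at -0.78 (levels of 3.08 in CSS12 and 3.87 in BcA86), and a Tmed10 probeset with a mean level of 6.34, at -0.49. Another Tmed10 probeset, at a level of 11.53, differed by -0.02, so that gene's probesets disagreed. For 239 of the 276 members the 95% interval of the CSS12 and BcA86 difference lay within 0.5 of 0.

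**Figure D5:**
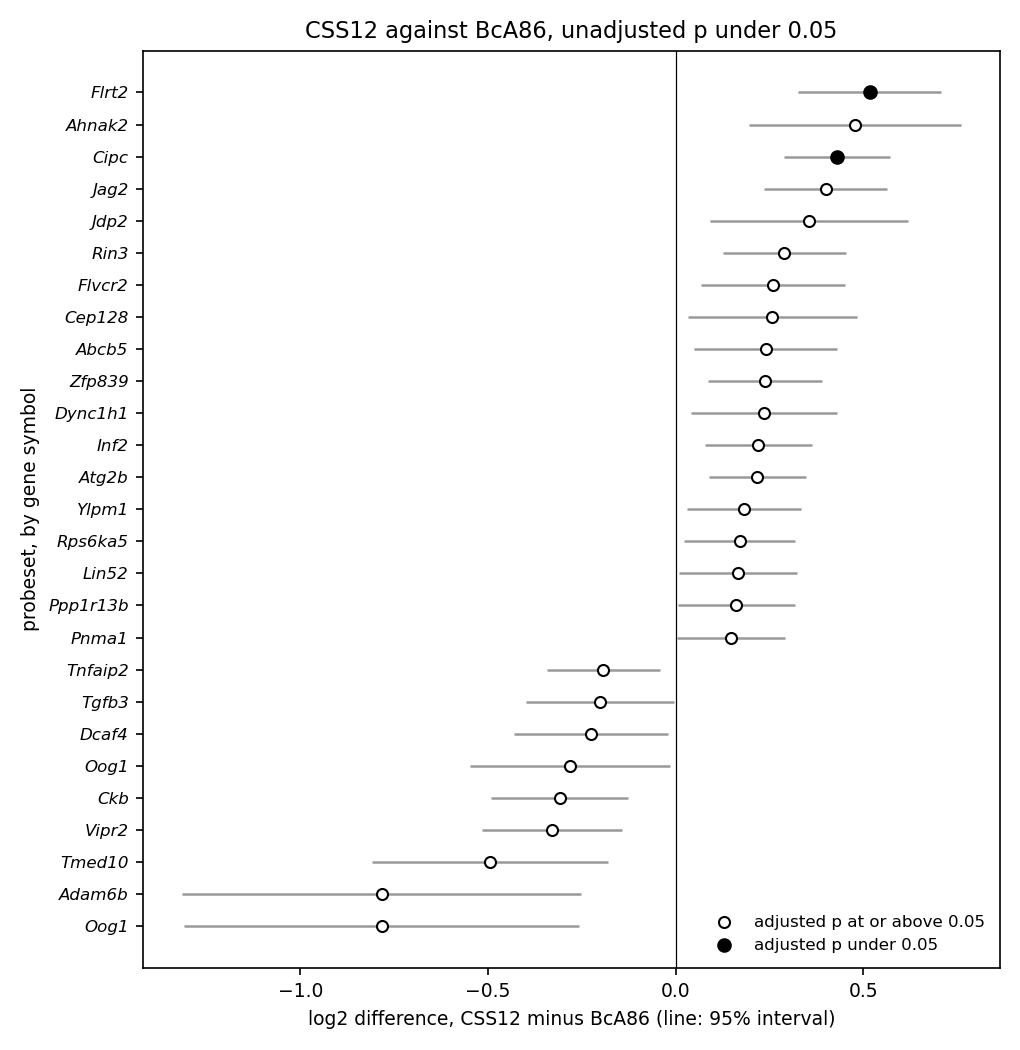
Log2 difference of CSS12 minus BcA86 (x axis) with its 95% interval for the 27 member probesets at an unadjusted p under 0.05 (y axis), of which 18 are higher and 9 lower in CSS12. Cipc and Flrt2, filled, passed an adjusted p of 0.05, and the 2 rows of Oog1 are its 2 probesets.

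The brightest members in C57BL/6J lung were the LIM-domain genes Crip2 (12.24 ± 0.04 in BcA86, 12.21 ± 0.03 in CSS12, 12.19 ± 0.08 in C57BL/6J) and Crip1 (11.82 ± 0.05, 11.95 ± 0.09 and 12.05 ± 0.08 in the same order), the lysosomal cholesterol carrier Npc2 at 11.92 ± 0.02 in C57BL/6J, Serpina3n, and Tmed10, a cargo receptor of the early secretory path. The dimmest were a Gtf2a1 probeset at 2.09 ± 0.10, Pramel51 at 2.72 ± 0.40 and Tcl1b3 at 2.88 ± 0.28 in C57BL/6J. Gtf2a1, a general transcription factor, also has a bright probeset, with a mean of 9.25 over the 9 mice. Gm16381, a predicted gene of the Oog1 family that the study's table holds, differed by 0.74 on one probeset, with overlapping groups (adjusted p 0.451), and by 0.01 on the other.

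The rule's edge fell between genes with small differences. Rgs6, a regulator of G protein signalling, is the first member and had a log2 fold change of 0.08 in the strains together, followed by Dpf3 at -0.16 and Dcaf4 at -0.03 and 0.07 on its 2 probesets. Just outside, on the QTL side, Sipa1l1 differed by 0.10, Pcnx by 0.24 and Map3k9 by -0.08. The other parts of Chromosome 12 had shares of probesets at an unadjusted p under 0.05 of 14.1% in the QTL (156 probesets), 26.1% between the start of the A/J segment of BcA86 and the QTL (46 probesets) and 17.3% in the proximal part that is A/J in CSS12 only (127 probesets), for the strains together. In that proximal part the share was 18.9% for BcA86 alone, which has no A/J DNA there, and 20.5% for CSS12 alone. Among the members these shares were 15.6% and 14.9%, and over all probesets 10.4% and 10.7%. What lies behind these shares was not tested.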

How the data were processed

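RNA from the lungs of 9 mice was measured on Affymetrix Mouse Gene 2.0 ST chips, 1 per mouse. Probe intensities were normalized by RMA by the authors, and the deposited values are log2 expression levels, 1 per probeset and array, used without further normalization or filter. The genome build behind the array annotation is not given in the sources used here. Genes were placed by Entrez ID (275 of 276 member probesets) or symbol (1) in RefSeq, GRCm38.p6. The strains were compared in 1 limma model of 9 arrays (limma 3.58.1, R 4.3.3), with p two-sided and adjusted by Benjamini-Hochberg over 41345 probesets, and an adjusted p under 0.05 taken as passing. The 3 arrays per strain limit the precision. The members and lists were chosen with earlier results of these data known. Named are members that passed, non-overlapping members with the largest change, up to 3 per list, the brightest and dimmest, those with the largest difference between CSS12 and BcA86, those of the study's table and those at the edge. Ckb, Coa8, Klc1, Fbln5, Acyp1 and the neighbours between Inf2 and Jag2 were added after their values were seen. In simulated data with 41345 probesets, limma recovered 33 of 67 changes of 1.5-fold, 53 of 67 of 2-fold and 65 of 66 of 4-fold in the strains together, with 7 false calls. Alternatives were a Cyber-T test (window 101, prior weight 10), trended and robust variances, the compared strains alone, a replicate block, dim probesets left out, median centring, array weights and each array left out. The paper names Cyber-T without these settings and selected on a p under 0.05 with a fold change cutoff. Here its p was adjusted and no such cutoff was set, so the counts are not those of the paper's selection.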

Additional observations from a re-analysis of the deposited data

Results flagged for a closer look

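Cipc and Flrt2 differed between the hyperresponsive strains: the difference between CSS12 and BcA86, tested directly in the fit of all 9 arrays, passed an adjusted p of 0.05 in both genes. For Cipc it was 0.43 on the log2 scale (adjusted p 0.0294), higher in 3 of 3 CSS12 mice than in any BcA86 mouse. Over C57BL/6J, Cipc differed by 0.15 in CSS12 (adjusted p 0.436) and by -0.28 in BcA86 (0.152), and neither passed. For Flrt2 the difference was 0.52 (adjusted p 0.0413), again in 3 of 3 CSS12 mice. Over C57BL/6J, Flrt2 differed by 0.11 in CSS12 (adjusted p 0.671) and by -0.40 in BcA86 (0.128), and neither passed. Both calls were lost when only the CSS12 and BcA86 arrays were fitted (adjusted p 0.0595 for Cipc and 0.12 for Flrt2). They were also lost with the replicate block (0.0882 and 0.102). Groups of 3 mice are too small for the test of single outlying samples.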

How the results depend on the processing

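The 12 differences that passed, on the 6 probesets of Inf2, Clba1, Jag2, Ahnak2, Cipc and Flrt2, kept their sign in every alternative run. In the strains together, where 4 members and 125 probesets of the whole array passed, 10 members and 445 probesets passed by Cyber-T, 10 and 254 with trended and robust variances, 12 and 286 with dim probesets left out, and 2 and 35 with the strains taken as 6 against 3. With an array left out, 2 to 4 members passed. In BcA86, where 3 members and 155 probesets passed, the counts were 10 and 1015 by Cyber-T, 6 and 228 with trended and robust variances, 7 and 280 with dim probesets left out, and 1 and 60 with the replicate block, and 1 to 4 members with an array left out. In CSS12, where 3 and 91 passed, they were 17 and 1079, 8 and 203, and 9 and 219 in the first 3 of those settings, 0 and 7 with the compared strains alone, 1 and 27 with the replicate block, and 1 to 3 members with an array left out. Between CSS12 and BcA86, where 2 and 296 passed, 11 and 2173 passed by Cyber-T, 0 and 62 with the compared strains alone, 0 and 136 with the replicate block, and 0 to 1 members with an array left out. Cyber-T made 128 false calls in the simulated data of the strains together, against 7 by limma. It recovered 49 of 67 changes of 1.5-fold, 64 of 67 of 2-fold and 66 of 66 of 4-fold, against 33, 53 and 65 by limma. The simulation took each probeset's observed spread as its true spread, which need not hold, so it cannot rank the tests on the real arrays. The deviations of same-numbered mice of different strains had correlations between -0.11 and 0.15. Different-numbered mice were not correlated for comparison, so these values cannot tell whether the numbers pair the mice. Inf2 and Clba1 passed in the strains together in every alternative, with adjusted p up to 0.0306 and 0.0481, and the log2 change of Ahnak2 ran from -1.13 to -0.92. Counts added after seeing the data were those at an unadjusted p under 0.05. In the strains together they ran from 39 to 51 members, and the balance of 21 higher and 27 lower became 23 higher and 21 lower without C57BL/6J replicate 2. In the stretch from Coa8 to Brf1 they ran from 13 to 15 with an array left out. The causes of these shifts were not tested.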
